A study of Mus musculus with 36 samples.

Results

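The genes described here are 10 genes of the mouse germline, Dazl, Mael, Sycp3, Tex101, Taf7l, Hormad1, Stk31, Tdrkh, Asz1 and Slc25a31, taken by name from a count table of 49671 genes. They were listed as germline genes held silent by DNA methylation, by a rule that names genes and used no measured value. The list was drawn up with earlier results of these data known, so it was not blind to them. RNA was sequenced from wild-type mouse embryonic stem cells (mESCs) of a 129 background, plated on soft or stiff StemBond hydrogels or on tissue culture plastic. StemBond hydrogels are polyacrylamide gels that hold fibronectin, the protein the cells attach to, by covalent tethers. At 24 h, serum + LIF was sampled on both gels. At 48 h both gels had 4 media, which were serum alone or with LIF, with PD03 or with both, and plastic had serum + LIF. LIF is a cytokine that sustains self-renewal, and PD03 (PD0325901) inhibits MEK, the kinase that activates ERK. All cells thus grew in serum, and no group carried a mutation. There were 36 libraries in 11 groups, 6 for serum + PD03 on soft gels and 3 for every other group. The labels did not say whether libraries of a group came from separate cultures, so p-values measure the spread between these libraries, which may be technical.

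Germline genes are read in germ cells, where they run meiosis, protect the genome from transposons and prepare the gametes. In most other cells their CpG-rich promoters carry DNA methylation or bind repressor complexes such as PRC1.6, in which MGA, MAX, L3MBTL2, PCGF6 and E2F6 take part and which reaches DNA through E-box and E2F sites. Cultured mESCs lose much of their DNA methylation when MEK is inhibited, as is known from work on naïve pluripotency. Neither methylation nor binding was measured in these samples, so only RNA levels can be compared.

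Promoter sequences are shown first, because methylation and the repressors act there. They are given for the 4 members that rose with PD03 in 3 or more of the comparisons that follow (Dazl, Tex101, Stk31 and Hormad1). Sycp3, which fell in all 4, and Tdrkh, which fell in 1, are shown as well. Mael and Taf7l, each also called in 1, are not shown. Each run is the 250 bases before the start of the gene, 5′ to 3′ on the strand of the gene, from RefSeq on build GRCm38.p6. Capitals mark the letters CACGTG (an E-box) or GCGGGA and its reverse complement TCCCGC (an E2F site). The stretches lie at chr17:50293621-50293870 (minus strand) for Dazl, chr7:24672051-24672300 (minus) for Tex101, chr6:49395354-49395603 (plus) for Stk31, chr3:95559427-95559676 (plus) for Hormad1, chr10:88459337-88459586 (plus) for Sycp3 and chr3:94412994-94413243 (plus) for Tdrkh.
Dazl: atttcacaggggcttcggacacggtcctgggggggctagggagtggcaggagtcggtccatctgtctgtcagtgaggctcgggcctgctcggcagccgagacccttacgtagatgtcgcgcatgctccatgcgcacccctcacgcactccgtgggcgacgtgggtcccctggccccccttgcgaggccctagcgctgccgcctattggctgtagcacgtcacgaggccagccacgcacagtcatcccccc
Tex101: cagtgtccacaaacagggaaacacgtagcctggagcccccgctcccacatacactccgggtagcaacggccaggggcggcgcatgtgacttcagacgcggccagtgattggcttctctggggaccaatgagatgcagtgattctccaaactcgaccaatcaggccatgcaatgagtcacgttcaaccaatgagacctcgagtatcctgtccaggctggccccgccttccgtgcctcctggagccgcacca
Stk31: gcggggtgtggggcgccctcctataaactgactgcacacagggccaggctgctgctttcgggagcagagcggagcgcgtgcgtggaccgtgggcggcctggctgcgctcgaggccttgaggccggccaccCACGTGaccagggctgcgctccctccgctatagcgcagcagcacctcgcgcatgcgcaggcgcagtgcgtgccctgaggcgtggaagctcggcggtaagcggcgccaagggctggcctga
Hormad1: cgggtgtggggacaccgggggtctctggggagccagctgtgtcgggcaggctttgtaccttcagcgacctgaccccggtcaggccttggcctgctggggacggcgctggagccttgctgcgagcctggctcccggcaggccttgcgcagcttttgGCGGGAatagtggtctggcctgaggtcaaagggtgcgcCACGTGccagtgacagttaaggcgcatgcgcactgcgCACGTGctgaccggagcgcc
Sycp3: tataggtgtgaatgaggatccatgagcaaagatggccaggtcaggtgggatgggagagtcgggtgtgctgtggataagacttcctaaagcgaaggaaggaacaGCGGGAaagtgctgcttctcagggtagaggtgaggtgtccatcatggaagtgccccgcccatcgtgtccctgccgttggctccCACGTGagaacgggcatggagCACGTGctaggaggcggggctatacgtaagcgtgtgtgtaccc
Tdrkh: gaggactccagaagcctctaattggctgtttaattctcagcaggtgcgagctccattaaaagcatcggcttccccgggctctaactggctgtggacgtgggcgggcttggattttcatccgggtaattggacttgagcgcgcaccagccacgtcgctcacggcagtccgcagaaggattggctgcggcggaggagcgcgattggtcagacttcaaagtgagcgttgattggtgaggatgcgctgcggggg

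All 10 members had an entry among the 32851 RefSeq windows, which run from 250 bases before to 50 after a start. Of the 2 windows each for Hormad1 and Stk31, the one at the annotated gene start was used. The Tex101 window starts 4625 bp inside the longest annotated extent of that gene. The members' windows were rich in CpG. The ratio of observed to expected CpG was lowest in Sycp3, at 0.67, and highest in Taf7l, at 1.03, against a median of 0.38 over all windows. The GC share ran from 47% in Taf7l to 71.3% in Stk31, with a median of 52.7% over all windows. CACGTG, which reads the same on both strands, stood in 6 of the 10 windows, and 7.15% of all windows held it. GCGGGA on either strand stood in 4 of the 10, against 20% of all windows, and these 4 (Mael, Sycp3, Hormad1 and Slc25a31) also held CACGTG, as did 1.99% of all windows. Hormad1 carried CACGTG 57 and 20 bases before its start, and Sycp3 carried it 64 and 43 bases before. Hormad1 and Sycp3 thus had the same kinds of match, and whether these bear on their levels was not tested. Stk31 had a single CACGTG 120 bases before its start, and Dazl, Tex101, Tdrkh and Asz1 had neither set of letters in the window. Both sets of letters hold a CpG, and the shares are over all windows, not over windows of like CpG content. The members are not independent draws and these matches are descriptions of sequence, not of binding.

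**Figure D1:**
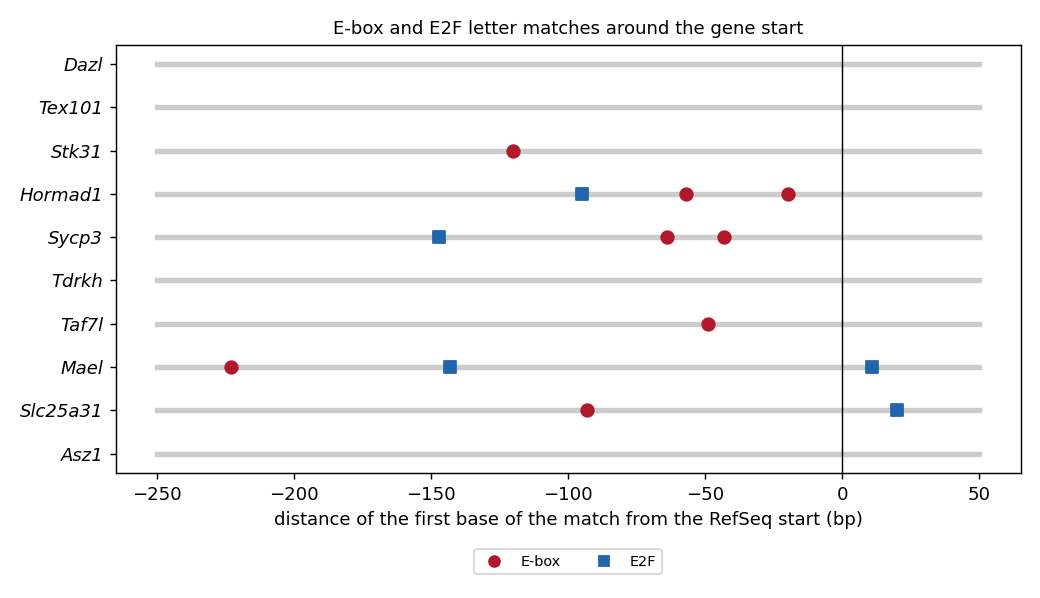
Positions of E-box letters (CACGTG, red circles) and E2F letters (GCGGGA on either strand, blue squares) in the promoter windows of the 10 members. The x axis is the distance in bp from the RefSeq start and each grey line spans 250 bases before to 50 after it. In the picture 6 members have an E-box match, 4 of these also an E2F match, and 4 members have neither.

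Most members were detected in these cells rather than silent. Given as CPM, counts scaled to a common library size, 9 of the 10 members were above 0 in every library. Mael had the highest mean over the 36 libraries, 16.8 CPM, and Dazl, Stk31 and Hormad1 followed with 14.3, 9.71 and 6.80 CPM. Sycp3 and Tdrkh had means of 3.99 and 3.42 CPM. Taf7l (1.43 CPM, 9 to 63 counts per library) and Slc25a31 (1.11 CPM, 9 to 36 counts) were low, and Tex101 lay just under 1 CPM, at 0.977 CPM with 3 to 56 counts. Asz1 was near the limit of detection, with 0 to 9 counts per library, a mean of 0.157 CPM and 0 counts in 9 libraries. Per kilobase of exon, the levels of Mael (9.67 CPM per kb), Hormad1 (3.93), Dazl (3.74), Sycp3 (3.16) and Stk31 (3.00) were above those of 52.9% to 74.1% of the tested genes. Taf7l, Tex101, Tdrkh and Slc25a31, between 0.52 and 0.64 CPM per kb, exceeded 26% to 28.8% of them, and Asz1, at 0.0556 CPM per kb, 1.58%. A filter on low counts kept 17702 genes for testing, among them 9 members and not Asz1. The same 9 members passed it when only the 21 libraries without PD03 were used. In these bulk samples a level cannot tell a few cells with much RNA from many cells with little.

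**Figure D2:**
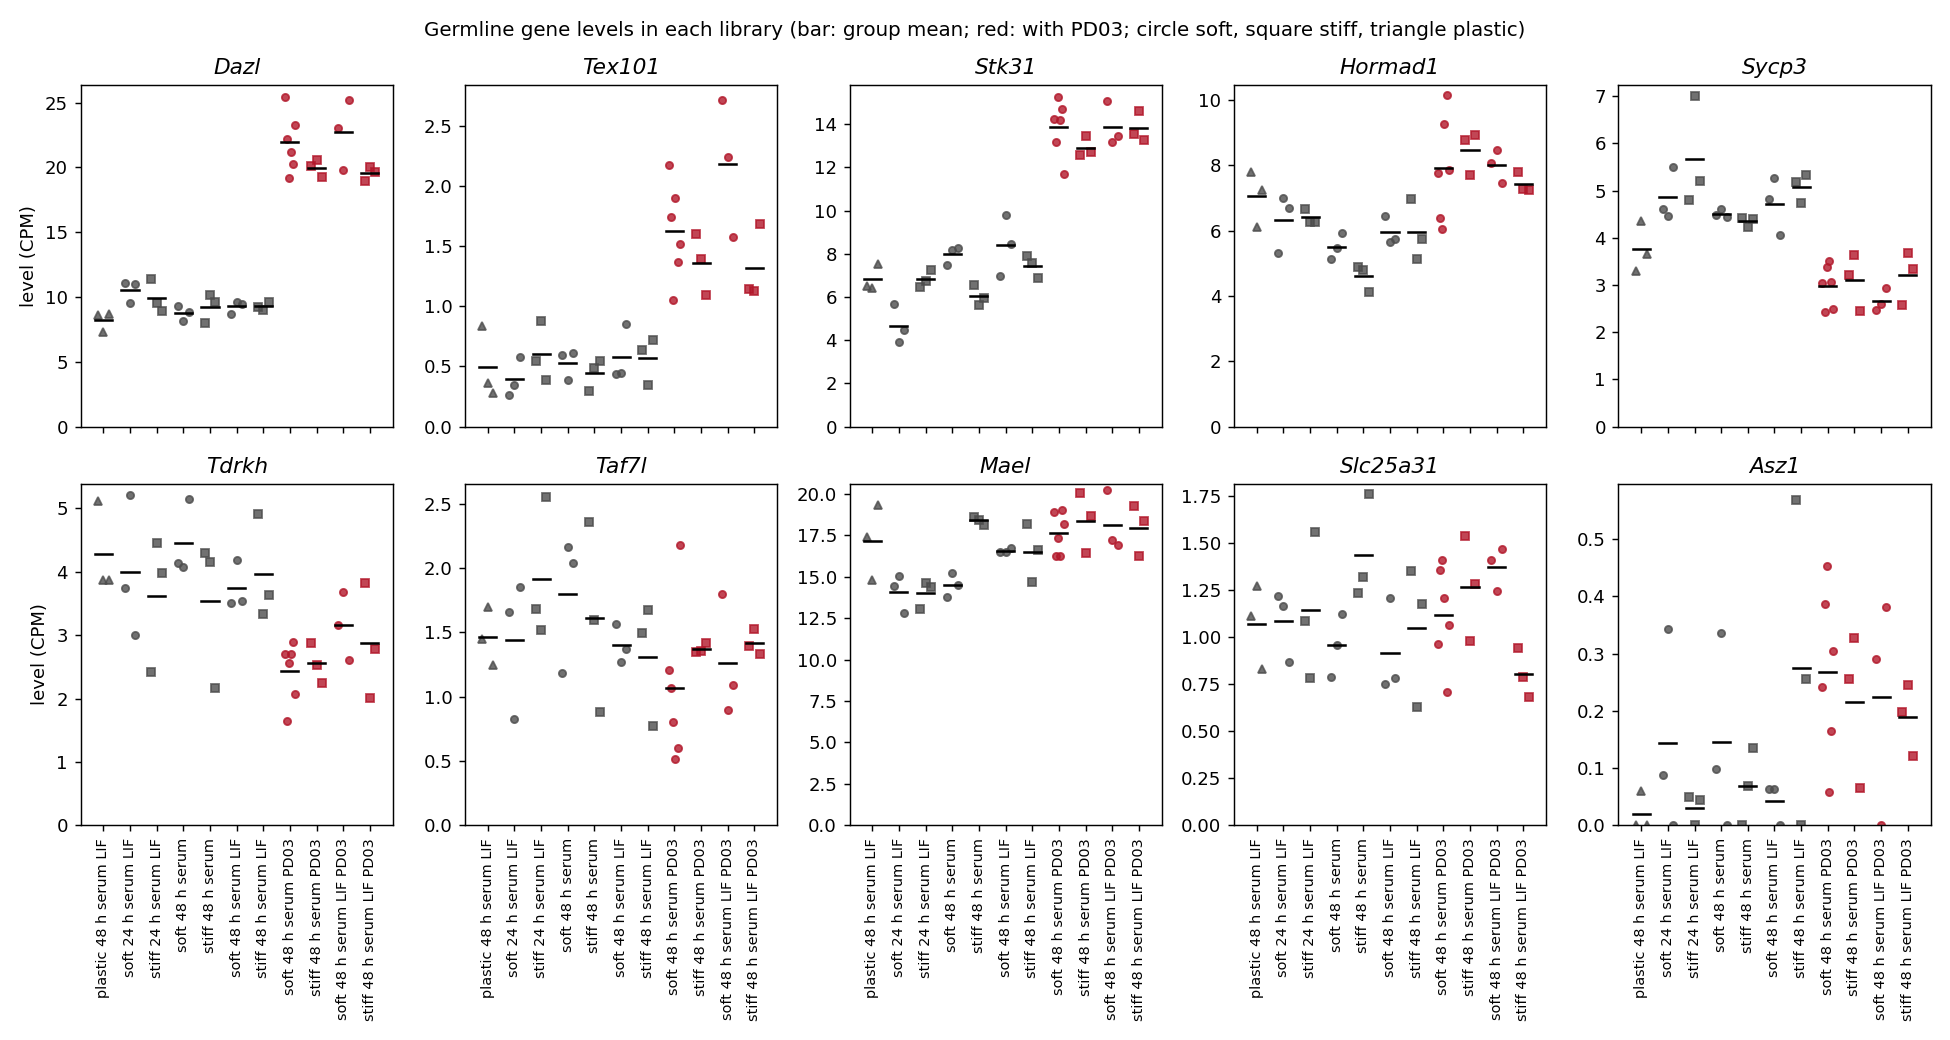
Level of each member (CPM, linear axes from 0) in every library of the 11 groups, with bars at the group means, red for groups with PD03 and circles, squares and triangles for soft, stiff and plastic. Dazl, Tex101 and Stk31 are higher in all 15 libraries with PD03 than in any of the 21 without, while Asz1 stays under 0.6 CPM throughout.

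The effect of MEK inhibition was taken at 48 h on each substrate, with and without LIF. Dazl, Tex101 and Stk31 rose in all 4 comparisons, a pattern held by 21.5% of the tested genes. Sycp3 fell in all 4, as did 19.9%. Hormad1 rose in 3, Mael rose in 1, Tdrkh and Taf7l each fell in 1, and Slc25a31 passed the threshold in none. By comparison, 4 members rose and 1 fell of the 9 tested with LIF on soft gels, where edgeR's quasi-likelihood test (Benjamini-Hochberg adjusted p under 0.05 over all tested genes) called 54.4% of all genes, 27.8% higher and 26.6% lower. With LIF on stiff gels 3 rose and 1 fell, against 56.2% of all genes called, 28.3% higher and 27.8% lower. Without LIF, 5 rose and 3 fell on soft gels, against 57.5% (29% and 28.5%), and 4 rose and 1 fell on stiff gels, against 55.8% (28.4% and 27.4%). The comparison without LIF on soft gels had 6 treated libraries and so more precision than the other 3. PD03 moved most tested genes, and the share of the 9 members it moved was near or below that background in 3 comparisons and above it in the one with 6 treated libraries. The median log2 fold change of the 9 members was 0.43 and 0.14 with LIF on soft and stiff gels and 0.29 and -0.01 without LIF, while the medians over all tested genes lay between -0.01 and 0.01.

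**Figure D3:**
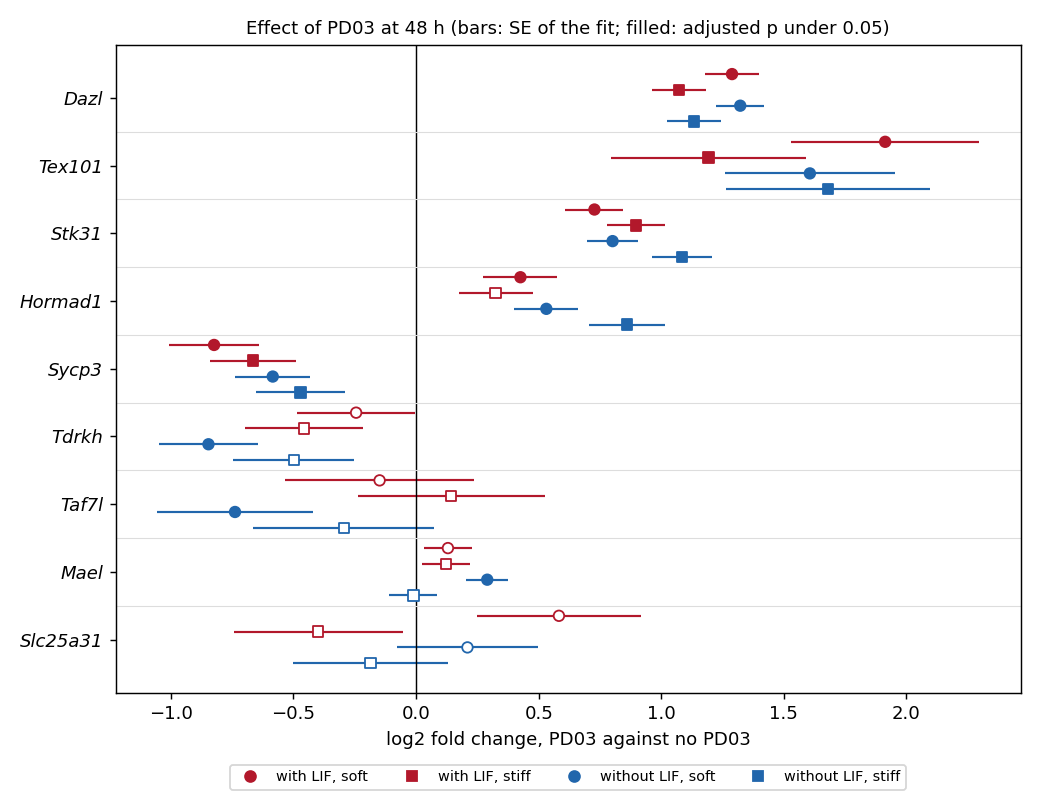
Log2 fold change with PD03 at 48 h for the 9 tested members (x axis) in the 4 comparisons, with bars at the SE of the edgeR fit and filled points for an adjusted p under 0.05. Dazl, Tex101 and Stk31 lie right of 0 in all 4 comparisons and Sycp3 left of 0, whereas the points of Slc25a31 lie on both sides and are open.

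Dazl encodes an RNA-binding protein that germ cells need to enter meiosis (ENSMUSG00000010592, chromosome 17, 50279395 to 50293636, GRCm38). On soft gels with LIF its level was 8.72, 9.65 and 9.48 CPM, and 23.1, 19.8 and 25.2 CPM with PD03 added. On stiff gels with LIF it was 9.24, 8.97 and 9.62 CPM, and 18.9, 20.1 and 19.7 CPM with PD03. All treated libraries were above all untreated ones, by roughly the same factor on both gels. Without LIF, soft gels gave 9.32, 8.12 and 8.87 CPM, and the 6 libraries with PD03 ran from 19.2 to 25.5 CPM. Stiff gels without LIF gave 8.0, 10.1 and 9.61 CPM, and 20.1, 20.6 and 19.3 CPM with PD03. The log2 fold changes were 1.29 ± 0.11 (SE of the fit) and 1.07 ± 0.11 with LIF on soft and stiff gels and 1.32 ± 0.10 and 1.13 ± 0.11 without, which is 2.10-fold to 2.5-fold, with edgeR adjusted p-values of 6.2e-12 or lower. The 24 h groups had 10.5 ± 0.860 (soft, mean ± SD, n = 3) and 9.96 ± 1.29 CPM (stiff, n = 3), and plastic had 8.2 ± 0.762 CPM (n = 3). In the order of the 11 group means the 4 PD03 groups came first, and the libraries of neighbouring groups overlapped at 9 of the 10 steps. The exception was the step from the PD03 groups to the rest.

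Stk31 encodes a Tudor domain protein with a kinase-like domain, found in spermatogonia (ENSMUSG00000023403, chromosome 6, 49395604 to 49469501). Its level with LIF rose from 6.96, 9.78 and 8.44 CPM to 15.1, 13.2 and 13.5 CPM on soft gels and from 7.89, 7.58 and 6.86 CPM to 13.6, 14.6 and 13.3 CPM on stiff gels. The treated libraries lay above every untreated library of any medium, of which the highest had 9.78 CPM. Without LIF it rose from 7.5, 8.17 and 8.26 CPM to between 11.7 and 15.2 CPM on soft gels, and from 6.54, 5.62 and 5.96 CPM to 12.6, 13.5 and 12.7 CPM on stiff gels. The 4 log2 fold changes ran from 0.73 ± 0.12 to 1.09 ± 0.12, with edgeR adjusted p-values of 7e-07 or lower.

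Tex101 encodes a surface glycoprotein of germ cells (ENSMUSG00000062773, chromosome 7, 24668007 to 24676675). It is a low gene, and its counts carry its precision. With LIF on soft gels 7, 7 and 13 counts (0.439, 0.445 and 0.850 CPM) became 56, 45 and 29 counts (2.72, 2.24 and 1.58 CPM) with PD03. On stiff gels with LIF 9, 5 and 14 counts became 23, 23 and 42. Without LIF, 12, 8 and 12 counts on soft gels compared with 18 to 45 with PD03, and 8, 7 and 8 counts on stiff gels with 25, 34 and 17. In CPM the 15 libraries with PD03, at 1.06 to 2.72, were all above the 21 without, at 0.261 to 0.882, and Dazl and Stk31 were the other members of which this held (13.1% of tested genes). The log2 fold changes were the largest among the members, between 1.19 ± 0.40 and 1.91 ± 0.38. The smallest, with LIF on stiff gels, had an edgeR adjusted p of 0.0089, which became 0.058 without stiff serum + LIF library 2 and 0.062 without stiff serum + LIF + PD03 library 3.

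Among the members, the RNA of 2 genes for axis proteins of meiotic chromosomes, Hormad1 and Sycp3, moved in opposite directions. Hormad1 (ENSMUSG00000028109, chromosome 3, 95559677 to 95587671), which recruits the machinery of recombination and synapsis, had 6.46, 5.65 and 5.76 CPM with LIF on soft gels and 8.06, 8.47 and 7.46 CPM with PD03. On stiff gels without LIF it rose from 4.90, 4.78 and 4.13 CPM to 8.78, 7.69 and 8.93 CPM, the largest of its changes, with a log2 fold change of 0.86 ± 0.15. The changes on soft gels were 0.43 ± 0.15 with LIF (edgeR adjusted p = 0.015) and 0.53 ± 0.13 without (0.00047). With LIF on stiff gels, 6.97, 5.15 and 5.73 CPM stood against 7.80, 7.28 and 7.24 CPM, a log2 fold change of 0.32 ± 0.15 that missed the threshold (adjusted p = 0.063). The call on soft gels with LIF was lost without soft serum + LIF + PD03 library 2 (adjusted p = 0.063) or soft serum + LIF library 2 (0.053) or library 3 (0.056), and the missed one on stiff gels passed without stiff serum + LIF library 1 (0.023), soft 24 h library 1 (0.049) or soft serum + PD03 library 3 (0.049), in a fit of the compared groups alone (0.046) and with a pool term at its highest (0.012).

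Sycp3 (ENSMUSG00000020059, chromosome 10, 88459569 to 88473236), a structural protein of the axis, fell. With LIF its level was 4.83, 5.27 and 4.05 CPM on soft gels and 2.48, 2.59 and 2.94 CPM with PD03, and 5.19, 4.73 and 5.32 CPM on stiff gels and 2.58, 3.69 and 3.34 CPM with PD03. Without LIF it was 4.49, 4.61 and 4.44 CPM on soft gels, with 2.42 to 3.51 CPM under PD03, and 4.41, 4.23 and 4.40 CPM on stiff gels, with 3.20, 3.64 and 2.44 CPM under PD03. The treated and untreated libraries did not overlap in any of the 4 comparisons, which 27.7%, 31.1%, 24.8% and 29.9% of tested genes did in this direction in the order given. The log2 fold changes were -0.82 ± 0.19 and -0.67 ± 0.18 with LIF on soft and stiff gels and -0.58 ± 0.15 and -0.47 ± 0.18 without. The last had an edgeR adjusted p of 0.025, which became 0.06 without stiff serum library 1 and 0.16 without stiff serum + PD03 library 3. Chpt1, a phospholipid synthesis gene on the other strand, shares 660 bp with Sycp3, which is 52.2% of the Sycp3 exons. Chpt1 rose with PD03 by 1.96 to 2.13 on the log2 scale, and since the strand setting of the counting was not stated, its part in the Sycp3 counts was not tested.

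Mael, Tdrkh and Asz1 act in the piRNA pathway, which silences transposons in the male germline. Mael (ENSMUSG00000040629, chromosome 1, 166201201 to 166238747) had the flattest profile, with group means between 14 and 18.4 CPM. It rose with PD03 on soft gels without LIF, from 13.8, 15.2 and 14.5 CPM to between 16.3 and 19 CPM (log2 fold change 0.29 ± 0.09, edgeR adjusted p = 0.0035), while its other 3 changes lay between -0.01 and 0.13. Tdrkh (ENSMUSG00000041912, chromosome 3, 94413273 to 94434668), a Tudor protein that binds PIWI proteins, fell in the same comparison from 4.14, 4.08 and 5.15 CPM to between 1.65 and 2.90 CPM, a log2 fold change of -0.85 ± 0.20 (adjusted p = 0.00033). Its other 3 fold changes were also negative, from -0.50 to -0.24, and did not pass the threshold in the full fit. Those on stiff gels passed it, with LIF, without stiff serum + LIF + PD03 library 1 (-0.69, adjusted p = 0.026) and, without LIF, without stiff serum library 3 (-0.74, 0.012). Oaz3 shares 36.7% of the Tdrkh exons on the other strand, but had a mean of 1.47 counts, against 62.1 for Tdrkh.

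Asz1 (ENSMUSG00000010796, chromosome 6, 18050964 to 18109061), an ankyrin repeat protein of the germ granule, could only be described by its counts. Summed over 3 libraries, there were 2 counts with LIF on soft gels and 13 with PD03, 13 and 12 on stiff gels, and without LIF 9 on soft gels against 28 over the 6 libraries with PD03, and 3 and 13 on stiff gels. The exact 95% Poisson intervals were 0.242 to 7.22 for the 2 counts and 6.92 to 22.2 for the 13, and they cover counting error only. A two-sided exact permutation test of CPM gave p = 0.4, 0.7, 0.29 and 0.3 in this order, where 3 against 3 libraries cannot go below 0.1 and 6 against 3 not below 0.024. The 3 comparisons of 3 against 3 libraries could therefore not have passed 0.05, and no direction is read from these counts.

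Taf7l (ENSMUSG00000009596, chromosome X, 134460118 to 134476490) encodes a relative of the TFIID subunit TAF7 that serves in testis. On soft gels without LIF it had 24, 45 and 40 counts (1.18, 2.16 and 2.04 CPM) and from 9 to 43 counts (0.518 to 2.18 CPM) with PD03, so the groups overlapped. Its log2 fold change of -0.74 ± 0.32 had an edgeR adjusted p of 0.043. The call was lost, with an adjusted p between 0.054 and 0.19, when any of soft serum + PD03 libraries 2, 3, 4 and 5 or soft serum libraries 2 and 3 was left out. In the other 3 comparisons its fold changes were -0.15, 0.14 and -0.29. Slc25a31 (ENSMUSG00000069041, chromosome 3, 40708855 to 40726096), the testis form of the mitochondrial ADP/ATP carrier, had fold changes of 0.58 ± 0.33 and -0.40 ± 0.34 with LIF on soft and stiff gels and 0.21 ± 0.29 and -0.19 ± 0.32 without.

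Whether the PD03 effect depended on substrate was tested as a difference of the 2 fold changes. No member passed the threshold, with or without LIF, where 1.07% and 0.797% of the tested genes did. In each test 1 member had an unadjusted p under 0.05, as had 1689 and 2024 of the 17702 tested genes. DESeq2 called no member in these tests or in the 2 tests of LIF that follow. The effect on soft minus that on stiff gels was 0.22 ± 0.16 (log2, SE) with LIF and 0.19 ± 0.15 without for Dazl, -0.17 ± 0.17 and -0.28 ± 0.16 for Stk31, and 0.72 ± 0.57 and -0.07 ± 0.53 for Tex101. The errors allow sizeable differences for Tex101 and Slc25a31 (0.98 ± 0.48 with LIF, adjusted p = 0.51). Nor did any member pass in the test of whether LIF altered the PD03 effect, on soft (0.0226% of genes) or stiff gels (1.09%). The lowest p there was that of Hormad1 on stiff gels, with a difference of -0.54 ± 0.22 and an adjusted p of 0.33. The comparisons with LIF on soft gels and without LIF on stiff gels each lay wholly within 1 pool. With LIF on stiff gels, 1 of the 3 libraries without PD03 came from another pool. Without LIF on soft gels, 2 of the 6 libraries with PD03 came from another pool.

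Few members differed between soft and stiff gels past the threshold. In the 24 h libraries, which shared 1 pool, 1 of the 9 was lower on soft gels, against 2.52% of tested genes called lower and 3.55% in either direction. This was Stk31, with 5.66, 3.91 and 4.45 CPM on soft and 6.47, 6.76 and 7.27 CPM on stiff gels (log2 fold change -0.57 ± 0.14, edgeR adjusted p = 0.0096). The call was lost without soft 24 h library 2 (adjusted p = 0.12) or library 3 (0.067), without stiff 24 h library 3 (0.063) and in a fit of these 6 libraries alone (0.098). At 48 h in serum, 1 member, Mael, was lower on soft gels, with 13.8, 15.2 and 14.5 CPM against 18.6, 18.4 and 18.1 CPM, where 2.77% of genes were called lower and 4.85% in either direction. Its log2 fold change was -0.35 ± 0.10 (adjusted p = 0.028), and the call was lost without any one of soft serum libraries 1 and 3 and stiff serum libraries 1, 2 and 3 (adjusted p from 0.052 to 0.14). Soft and stiff libraries came from different pools here, and with a pool term the adjusted p was 0.058 to 0.71. At 48 h in the other 3 media no member passed, against 0.780%, 5.55% and 7.61% of genes in the order LIF, PD03 and both. In this order 0, 0 and 3 members had an unadjusted p under 0.05, as had 1929, 3157 and 3407 of the 17702 tested genes. DESeq2 also called no member in these 3 media. Soft and stiff libraries came from different pools in serum + LIF and in serum + LIF + PD03 as well. In serum + PD03 only 2 of the 6 soft libraries shared the pool of the stiff ones. At 48 h, substrate and pool could therefore not be fully told apart.

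**Figure D4:**
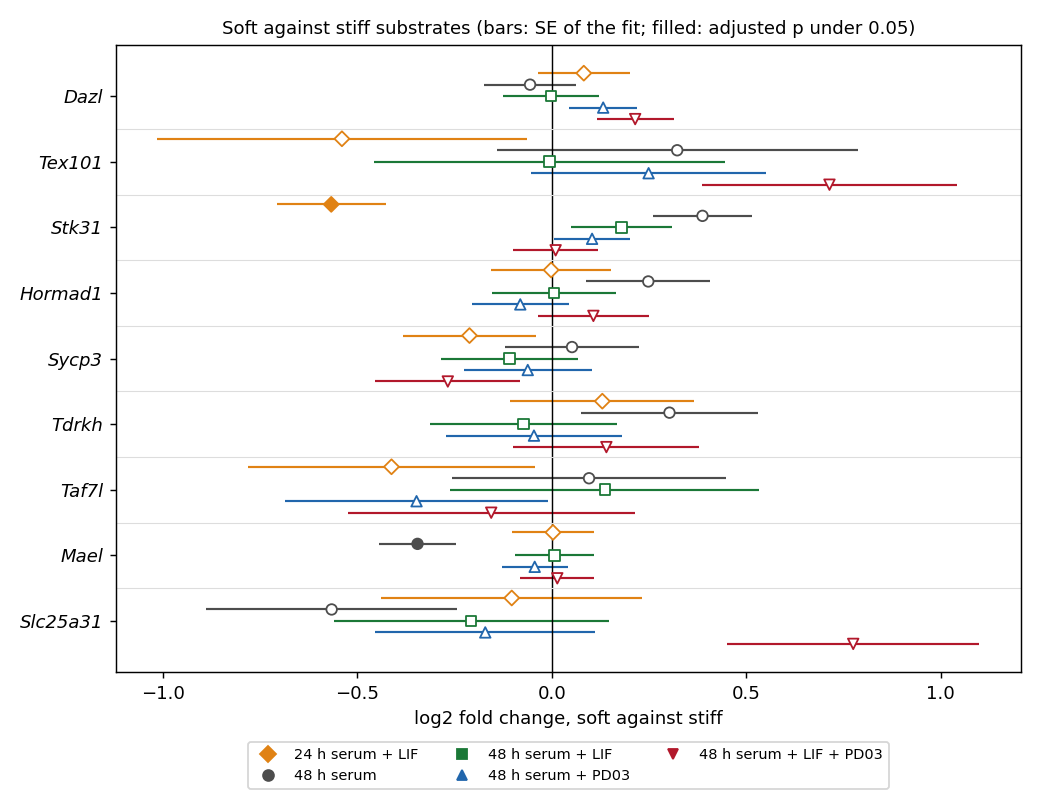
Log2 fold change between soft and stiff gels for the 9 tested members in 5 conditions, with bars at the SE of the edgeR fit and filled points for an adjusted p under 0.05. Only Stk31 at 24 h and Mael at 48 h in serum are filled, both left of 0, and most other bars cross or touch 0.

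No member passed the threshold in any of the 4 comparisons of LIF, in which 0.0169% to 1.41% of the genes were called. In these, 0 to 2 members had an unadjusted p under 0.05 in edgeR, as had 1345 to 2032 of the 17702 tested genes. DESeq2 called no member either. With mostly 3 libraries per group, smaller changes could have been missed. Time changed Stk31 on soft gels, the 1 member of 9 that passed against 12.9% of tested genes called higher and 24.4% in either direction. In serum + LIF it rose there from 4.68 ± 0.897 CPM at 24 h to 8.39 ± 1.41 CPM at 48 h (mean ± SD, n = 3 each), 0.86 ± 0.14 on the log2 scale (edgeR adjusted p = 5.4e-06). With a pool term this change was as small as 0.44, with an adjusted p of 0.42. The 24 h and 48 h soft libraries came from different pools. On stiff gels Stk31 had 6.83 ± 0.406 CPM at 24 h and 7.44 ± 0.531 CPM at 48 h (n = 3 each), no member passed, and 25.6% of genes did. The difference between the 2 time effects was 0.75 ± 0.19 for Stk31, with an adjusted p of 0.082 in a test chosen after its values were seen, which 0.254% of genes passed. Against plastic no member passed on soft (11.8% of genes) or stiff gels (5.54%), and DESeq2 called none. On each gel 1 member had an unadjusted p under 0.05, as had 4122 (soft) and 2989 (stiff) of the 17702 tested genes. The soft libraries, and 2 of the 3 stiff ones, came from other pools than those on plastic.

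The same comparisons were run on 51 other germline genes, of which 45 were tested. With LIF, 10 rose and 10 fell on soft gels and 10 rose and 17 fell on stiff gels. Without LIF, 14 rose and 13 fell on soft gels and 12 rose and 14 fell on stiff gels. These 20, 27, 27 and 26 of 45 lay near the shares of all tested genes called, which were 54.4%, 56.2%, 57.5% and 55.8% in this order. Their median fold changes were between -0.06 and 0.12 on the log2 scale. Among those called in all 4 comparisons, the largest mean rises were in Dkkl1, Stra8, Tuba3a, Brdt, Hormad2 and Fkbp6. Stra8, the switch for entry into meiosis, rose from 6.65 ± 0.811 to 20.7 ± 0.999 CPM on soft and from 5.81 ± 1.25 to 21.2 ± 1.04 CPM on stiff gels with LIF (n = 3 each). Hormad2, the partner of Hormad1, rose by 1.02 to 1.36 on the log2 scale. The largest mean falls were in Piwil4, Mei4, Tdrd1, Tdrd5, Syce2 and Ddx4. Piwil4, a PIWI protein of fetal germ cells, fell from 1.79 ± 0.488 to 0.270 ± 0.120 CPM on soft gels with LIF and to 1 count over 3 libraries on stiff gels. Syce2, of the central element of the synaptonemal complex, and Ddx4, the germ cell RNA helicase, fell by 0.91 to 1.06 and by 0.61 to 1.18.

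Genes of the DNA methylation machinery moved in both directions with PD03. Of the 10 listed, 2 rose and 6 fell with LIF on soft gels, 3 and 6 on stiff gels, and without LIF 2 and 5 on soft and 2 and 6 on stiff gels, where 54.4%, 56.2%, 57.5% and 55.8% of all tested genes were called. The median log2 fold changes of the list were between -0.32 and -0.17. The de novo methyltransferases Dnmt3a and Dnmt3b and their cofactor Dnmt3l fell in all 4 comparisons. Dnmt3b went from 287 ± 4.76 to 60.5 ± 4.39 CPM on soft and from 308 ± 9.77 to 62.0 ± 1.51 CPM on stiff gels with LIF (n = 3 each). Dnmt3a fell by 1.30 to 1.5 and Dnmt3l by 1.5 to 1.69 on the log2 scale. Prdm14, which represses the de novo enzymes, rose by 2.41 to 3.22, and Tet2, which oxidises methylated cytosine, rose by 1.47 to 1.64. Tet1 and the glycosylase Tdg fell, by 0.28 to 0.47 and by 0.88 to 1.12. Dnmt1, the maintenance enzyme, had fold changes between -0.05 and 0.05 and passed in none. Its partner Uhrf1 fell in 3, by 0.13 to 0.17, and Tet3 rose by 0.32 with LIF on stiff gels only among the calls. Whether methylation at the members' promoters changed was not measured.

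Of 16 genes that repress germline genes, 2 to 4 rose and 7 or 8 fell in each comparison. With LIF 9 were called on soft and 10 on stiff gels and without LIF 12 and 10, beside the same 54.4%, 56.2%, 57.5% and 55.8% of all tested genes, and the list's medians were between -0.14 and -0.08. The ones called in all 4 with a mean change of at least 0.5 were Tfdp1, the E2F partner DP1 (-1.06 to -1.11), Ehmt1, the H3K9 methyltransferase GLP (-0.70 to -0.80), and Setdb1, another H3K9 methyltransferase, which rose by 0.54 to 0.58. Of the other PRC1.6 subunits on the list, Pcgf6 fell in all 4 by 0.34 to 0.55, Cbx3 by 0.22 to 0.47 and Mga by 0.11 to 0.18. L3mbtl2 fell in 3 and E2f6 and Yaf2 in 1 each. Ring1 rose in 3 by 0.47 to 0.50, Rybp in 3 by 0.12 to 0.23 and Rnf2 in 1, and Max passed in none. As a check of the inhibitor, 7 of 8 ERK targets fell in every comparison, with Dusp6, Dusp4 and Spry2 at log2 fold changes from -2.74 to -3.15, -2.49 to -3.03 and -1.88 to -2.30.

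**Figure D5:**
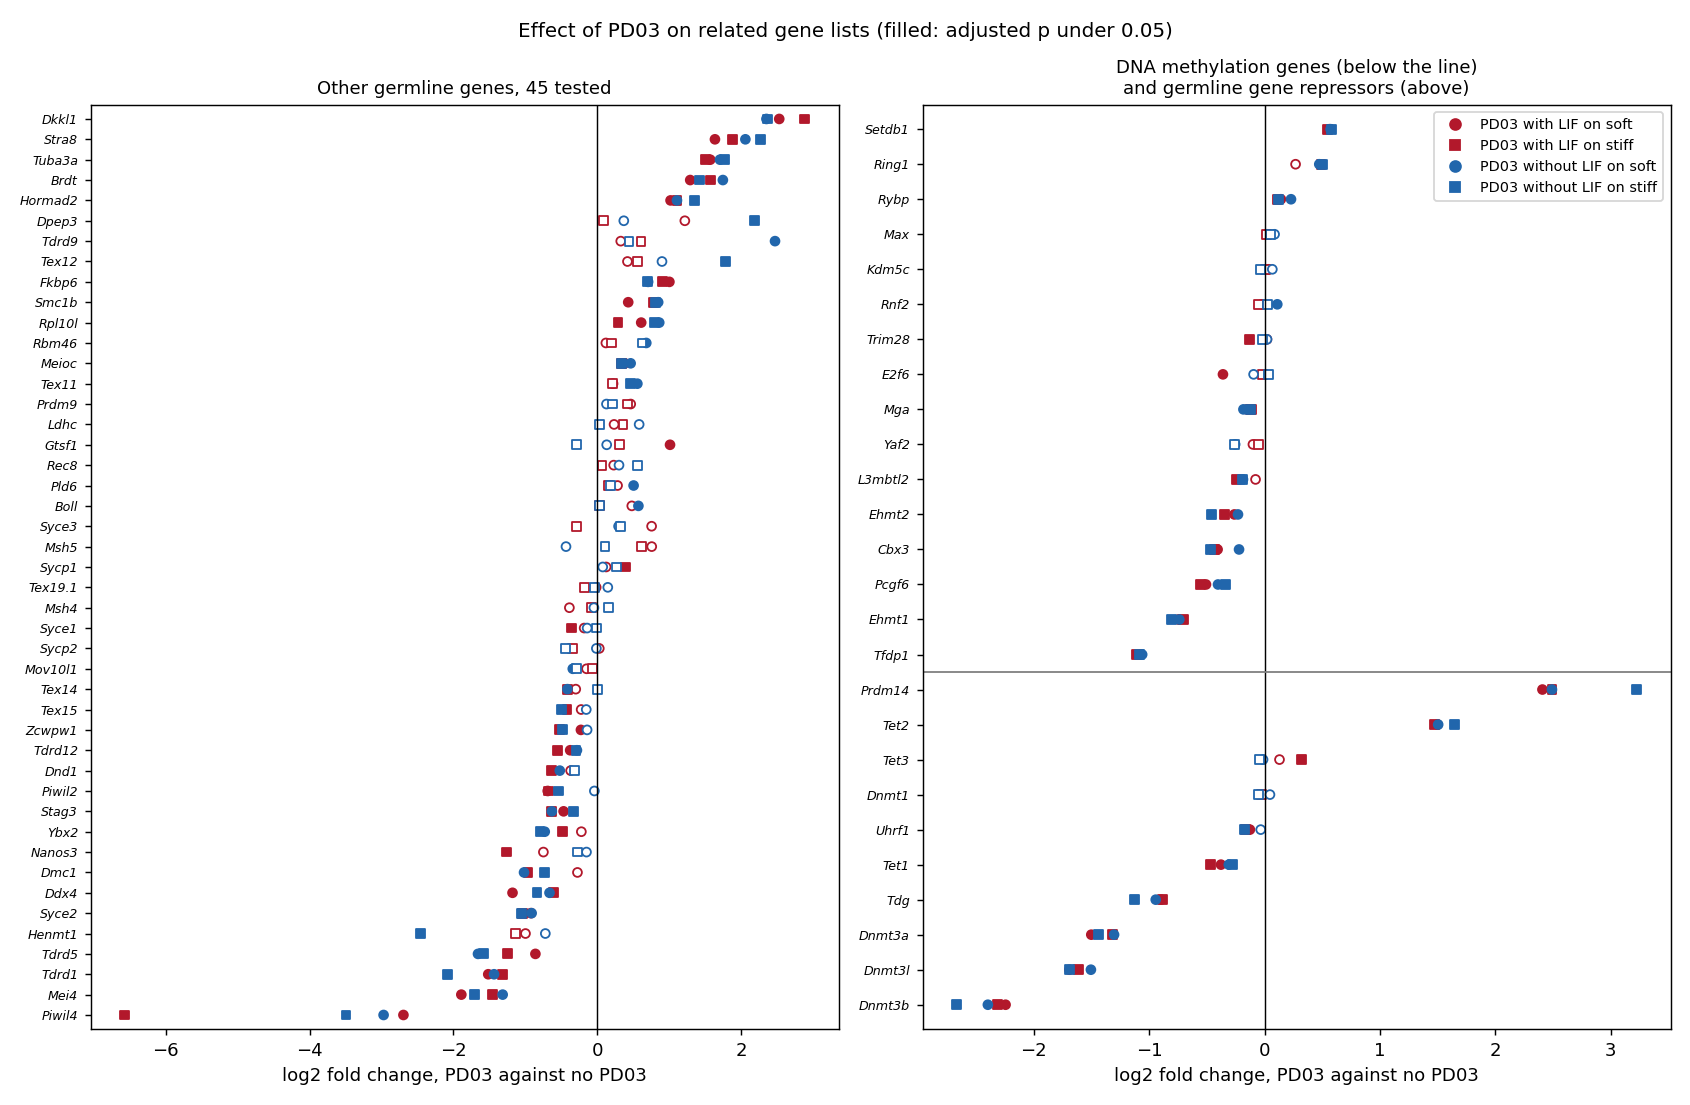
Log2 fold change with PD03 (x axes) for 45 other germline genes (left) and for the DNA methylation genes and germline gene repressors (right, below and above the line), with filled points for an adjusted p under 0.05 in the 4 comparisons. The germline genes fall on both sides of 0, whereas Dnmt3a, Dnmt3b and Dnmt3l lie between -2.67 and -1.30 in all 4.

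Markers of other cell states moved with PD03 too, and their part in the members' changes was not tested. The 5 pluripotency markers (Pou5f1, Sox2, Nanog, Zfp42 and Sall4) summed to 2384 to 2849 CPM without and 3440 to 3958 CPM with PD03, so the cells carried the markers of their label. Nanog and Sall4 rose in all 4 comparisons, Pou5f1 and Sox2 on soft gels only, and Zfp42 only without LIF on stiff gels. The 7 primordial germ cell markers summed to 107 to 181 CPM without and 357 to 449 CPM with PD03. Of these, Kit, Dppa3 and Tfap2c rose in all 4 comparisons, Ddx4 fell in all 4, Dnd1 and Prdm1 fell in 2 each and Nanos3 in 1. Kit alone went from 51.9 to 223 CPM on soft gels with LIF. The 5 trophoblast markers summed to 20.3 to 54.0 CPM and 100.05 to 157 CPM. In each comparison 3 or 4 of these 5 were called higher, against 27.8% to 29% of all tested genes, while Eomes fell in all 4. Gata3 alone went from 10.7 to 90.2 CPM on soft gels with LIF. The 5 primitive endoderm markers summed to 16.4 to 35.1 CPM and 13.2 to 20.9 CPM. The 5 fibroblast markers summed to 25.6 to 81.6 CPM and 32 to 92.9 CPM, and among them Col1a1 rose and Thy1 fell in all 4. The 5 markers of the 2-cell-like state, of which 3 were tested and fell, summed to 3.36 to 11.1 CPM and 0.456 to 2.73 CPM, and 1 or 2 of them were at 0 in each group. Total counts per library ran from 10405696 to 26635239.

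Members differed among themselves in how their group means ran over the 11 groups. Pearson's r was 0.96 between Dazl and Tex101, 0.95 between Tex101 and Stk31 and 0.79 between Dazl and Hormad1, and it was -0.89 between Dazl and Tdrkh and -0.86 between Dazl and Sycp3. These values describe 11 means that share their treatment and their pools. The genes outside the list whose means over the groups were most like the mean standardised profile of the tested members were Nhlrc3 (r = 0.93), Slc39a13 (0.92), Ip6k2 (0.91), Pitpnm3 (0.90) and Hs3st1 (0.90), out of 13786 genes with a mean of at least 1 CPM. That mean profile joins members that ran in opposite directions, so likeness to it is not likeness to each member. The summed level of the 10 members was 46.3 to 56.5 CPM in the 21 libraries without PD03 and 66.6 to 78.3 CPM in the 15 with it, and 35.7 to 47.2 CPM and 44.5 to 55.2 CPM without Dazl.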

How the data were processed

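RNA was sequenced from 36 libraries of mouse embryonic stem cells in 11 groups. Per the labels and methods, the authors aligned reads to GRCm38/mm10 with STAR 2.5.2a, counted them per gene with htseq-count on Ensembl 87 and deposited raw counts for 49671 genes. The strand setting and the treatment of multiply mapped reads were not given in the sources used here. Columns named the group only, so library numbers are names and carry no pairing.

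Counts were analysed with edgeR 4.0.16 in R 4.3.3. Genes passing filterByExpr (17702, 99.92% of counts) were scaled by TMM and fitted by a quasi-likelihood model with 1 coefficient per group over all libraries. Comparisons were contrasts with Benjamini-Hochberg adjustment over the tested genes and a threshold of 0.05. CPM used TMM-scaled library sizes, and SE is the absolute log2 fold change over the square root of F. Symbols, coordinates and exon lengths came from GENCODE M21 on GRCm38. Asz1, below the filter, was tested by an exact permutation test of CPM.

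The members and lists were chosen with earlier results of these data known. All 10 members are named. Of the other germline genes, those named are the 6 per direction with the largest mean fold change among genes called in all 4 PD03 comparisons with 1 sign and at least 1 CPM. All DNA methylation genes were eligible, repressors called in all 4 with a mean change of at least 0.5 (the PRC1.6 subunits, all of those listed, were named beside them after their values were seen), and 3 ERK targets. Likeness was the correlation over group means. Alternatives were DESeq2 1.42.0 size factors and test, total count scaling, no filter, fits of the compared groups alone, a pool term over 45 possible assignments and leaving out each library. On counts simulated for PD03 without LIF on stiff gels (14812 genes) the fit recovered 86% of 1.5-fold and 96% of 2-fold rises and 79.6% of falls to 0.5 times the level, with 4.76% false calls. That simulation held these 2 groups alone and 49 or 50 changed genes per fold, all above 1 CPM. PD03 moved many more genes, so these rates do not carry over to the full fit or to genes under 1 CPM. Libraries of a group were compared for duplicates, and all 45 pairs differed beyond counting noise, with a chi-square per gene of 2.22 or more.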

Additional observations from a re-analysis of the deposited data

Results flagged for a closer look

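The substrate effect on 2 members pointed in opposite directions in conditions whose libraries did not overlap. Stk31 was lower on soft gels at 24 h in serum + LIF (log2 fold change -0.57, adjusted p = 0.0096) and higher at 48 h in serum (0.39, adjusted p = 0.069). Slc25a31 was lower on soft gels at 48 h in serum (-0.57) and higher at 48 h in serum + LIF + PD03 (0.78, adjusted p = 0.16), on counts of 16 to 33 in these groups. For soft against stiff gels, 9.82% of tested genes did not overlap and were lower at 24 h, 9.83% and 10.6% were so higher and lower at 48 h in serum, and 11.6% higher in serum + LIF + PD03. The conditions also differ in medium, time or pool. The difference between these pairs of effects was not tested. No library of the 6 in serum + PD03 on soft gels stood apart from the others for any of the 10 members by Dixon's test at the 95% level.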

How the results depend on the processing

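No paired analysis was possible because the columns of the count table carry no replicate numbers. The counts of members called with PD03 stayed within 1.5 times those reported under every alternative run, and without single libraries they ran from 4 to 5 and 3 to 5 with LIF on soft and stiff gels and from 7 to 8 and 4 to 6 without LIF. For soft against stiff gels, the count at 24 h was 0 in the fit of the groups compared and 0 to 1 without single libraries, and that at 48 h in serum was 0 with a pool term under the lowest and the highest assignment and 0 to 1 without single libraries. The count for 48 h against 24 h on soft gels was 0 at the lowest over pool assignments. Without single libraries it was 0 to 1 for 48 h against 24 h on stiff gels (1 without stiff serum + LIF library 2) and for soft gels against plastic (1 without soft serum + LIF library 1). Uncalled fold changes that changed sign were Mael without LIF on stiff gels (0.018 under total count scaling, and -0.066 to 0.084 without single libraries), Taf7l with LIF on stiff gels (-0.16 at the lowest over pool assignments and -0.15 to 0.38 without single libraries), Taf7l without LIF on stiff gels (-0.57 to 0.14), Taf7l with LIF on soft gels (-0.50 to 0.039) and Slc25a31 without LIF on stiff gels (-0.33 to 0.0021). Dazl and Stk31 kept their PD03 calls in all 4 comparisons under every alternative run, and Sycp3 lost its call without LIF on stiff gels when no genes were filtered (adjusted p = 0.074). With a pool term, Tex101 with LIF on stiff gels reached an adjusted p of 0.064 and Taf7l without LIF on soft gels 0.27. Scaling alternatives moved the median of all genes by at most 0.03 on the log2 scale. Depth limits Asz1, Tex101, Taf7l and Slc25a31, which had at most 63 counts in a library.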
